A study of Zea mays with 24 samples.

Results

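Shoots and roots of iron-deficient (–Fe) maize seedlings were compared across 17621 of the 17734 probe sets of the Affymetrix Maize Genome Array, all except the manufacturer's control probe sets. A probe set is a group of short oligonucleotides that reads 1 transcript. The comparison used the 3 arrays labelled as shoot and the 3 labelled as root from plants kept without iron, 6 of the 24 arrays of the series. All seedlings were of the maize inbred SKV616, a quality protein maize line, and grew hydroponically. The –Fe plants received a solution without the iron source, Fe EDTA, but with zinc, and were sampled 12 days after transplanting. Shoot and root of the same age with full supply (+Fe+Zn, the control) and with iron but no zinc (–Zn), 3 arrays each, served only to show where the –Fe tissue difference was different. The rest of the series withheld both metals (–Fe–Zn) and entered only the shared estimate of spread.

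Iron is needed in leaves for the electron carriers of photosynthesis and for chlorophyll synthesis, and it enters the plant through the root. Grasses take it up by releasing mugineic acids, chelators made from methionine through nicotianamine, and by importing the iron-chelator complex. Nicotianamine also keeps iron soluble inside the plant, and ferritins store it.

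All values are on the log2 scale as deposited, so that a difference of 1 is 2-fold. The lowest value on every array was 2.24, and a transcript there was not above background, so a difference from a tissue at this floor is a lower bound. A difference counted as called where its limma p, adjusted after Benjamini-Hochberg, was under 0.05, and its standard error (SE) is given where a gene is described in full. The replicates are described as biological, without a statement of separate cultures, and p-values measure only the spread between arrays of a group. For each probe set this spread was pooled over all groups of the series, not taken from the –Fe arrays alone. A call under –Fe, or its absence, can therefore depend on spread in the other groups. Arrays of 1 tissue correlated at 0.997 to 0.998 under –Fe, and arrays of the 2 tissues at 0.760 to 0.771. All 9 leaf markers measured were called higher in shoot, with an array median of 12.42 to 12.57 in shoot and 3.20 to 4.64 in root, the highest of these in root replicate 3. Of 13 root markers 7 were measured. The tonoplast aquaporins TIP2-1, TIP2-2 and TIP2-3 and nas1 were called higher in root, whereas PER66, nas2 and nrt2 were at or near the floor in root. The meristem marker kn1 was at the floor in both tissues. In whole organs, fewer cells of a type and less RNA per cell cannot be told apart.

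Under –Fe, 4453 probe sets (25.3%) were called higher in shoot and 4874 (27.7%) higher in root, and 8294 were not called. The median size of the difference was 0.53 and its median SE 0.16. Large differences lay more often on the shoot side: 435 probe sets were called higher in shoot by at least 5 on the log2 scale and 178 in root, and 163 against 38 by at least 7. At the threshold of the study's methods, an unadjusted p under 0.05 with a 2-fold minimum, 3208 (18.2%) were higher in shoot and 3491 (19.8%) in root. The arrays of both tissues did not overlap in 4423 of the probe sets called for shoot and in 4838 of those called for root. Over all probe sets, called or not, shoot lay above root without overlap for 5191 and root above shoot for 5764. These counts exceed those of the called probe sets, so a lack of overlap alone does not mark a called difference. Both tissues were at the floor on all 6 arrays for 3020 probe sets. A further 104 were at the floor on every root array and on no shoot array, and 187 the other way round. A gene name was available for 1517 of the probe sets, and all genes below come from these.

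Genes of C4 carbon fixation and of the photosynthetic membrane held the top of the shoot side. The gene pep1, for the phosphoenolpyruvate carboxylase that first fixes carbon in the mesophyll, measured 14.90, 14.70 and 14.62 in shoot and 3.56, 3.16 and 4.64 in root. Its difference of 10.96 (SE 0.37, adjusted p = 2.1e-14) was the largest among named genes. Carbonic anhydrase, which supplies this enzyme with bicarbonate, measured 13.52, 13.45 and 13.49 in shoot and averaged 2.76 (SD 0.38, n = 3) in root, a difference of 10.73 (SE 0.42, adjusted p = 1.9e-13). Neither gene's groups overlapped, which the rule for naming the largest differences required. PLTP, a phospholipid transfer protein, measured 13.24, 13.23 and 13.19 in shoot and 2.25, 2.25 and 3.34 in root, a difference of 10.61 (SE 0.30, adjusted p = 1.9e-15). The antenna gene Cab-m7 measured 14.27, 14.19 and 14.37 in shoot against 3.50, 2.99 and 4.94 in root, a difference of 10.47 (SE 0.36, adjusted p = 3.4e-14). For pep1, PLTP and Cab-m7, root replicate 3 was the highest root array, and it stayed far under every shoot array.

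The same side held both subunits of the chloroplast glyceraldehyde-3-phosphate dehydrogenase, gpa1 (10.37) and gpb1 (9.26). It also held L-FNRII, a leaf ferredoxin-NADP reductase (9.70), PSBQ1 of the oxygen-evolving complex (9.42), psbs1 of photoprotection (8.96), and thi1 of thiamine synthesis (9.22). Further C4 genes, mdh6 for the NADP malate dehydrogenase (9.12) and pdrp1 for the regulator of pyruvate phosphate dikinase (8.99), were close behind. LOC100125656 (9.64) and LOC541622 (9.43) carry no further name. The gene me3, for the NADP-malic enzyme that releases carbon dioxide in the bundle sheath, measured 11.61, 11.36 and 11.26 in shoot and was next to the floor on the 3 root arrays, a difference of 9.17 (SE 0.16, adjusted p = 3.6e-18).

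**Figure D1:**
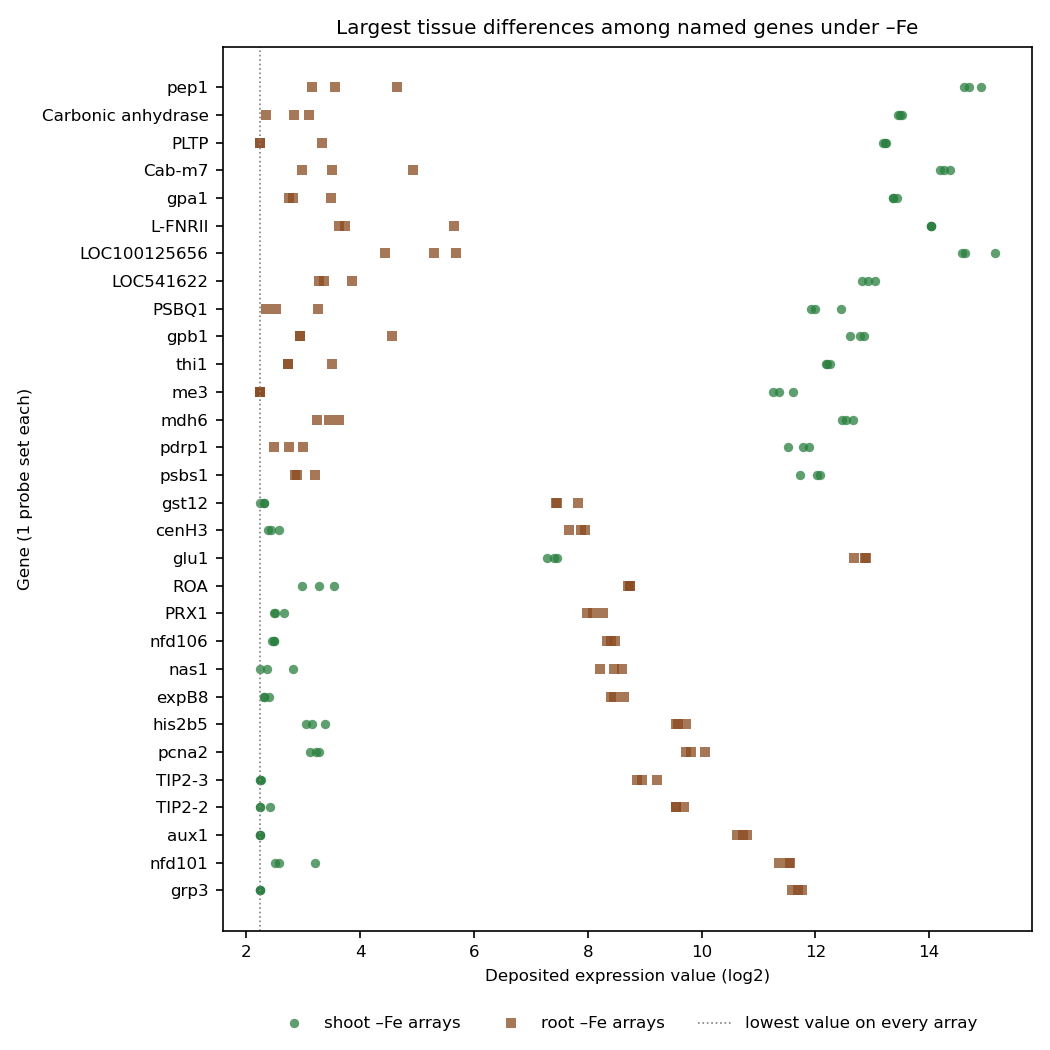
Deposited log2 values (x axis) of the named genes with the largest tissue differences under –Fe (y axis, 1 probe set a gene), with 3 shoot and 3 root arrays as points. Only genes whose shoot and root arrays do not overlap were eligible, and pep1 and grp3 head the shoot and root sides with differences of 10.96 and -9.45.

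For the gene lists below, counts cover every probe set of a list, and examples outside the naming rule were chosen after their values were seen. Each count is to be read beside the shares over all probe sets, 25.3% higher in shoot and 27.7% in root. In all, 11 of 13 photosystem and antenna probe sets were called higher in shoot and 1 higher in root, with a median difference of 8.09 against 0 over all probe sets. The exception was Chlorophyll a-b binding protein 6A (-1.42). Of 20 Calvin cycle and C4 probe sets, 17 were higher in shoot and 2 in root, median 6.65. The 2 were MZPPT1, a phosphoenolpyruvate translocator of plastids (-2.69), and 1 of 5 probe sets of Ppdk1 (-2.01). Of its other probe sets, 3 differed by 5.68 to 7.96, and the last was next to the floor in both tissues and not called. Of 7 chlorophyll and heme probe sets, 4 were higher in shoot and none in root, among them oy1 of the magnesium chelatase (4.71), lls1 of chlorophyll breakdown (6.58) and ferrochelatase (3.39), which inserts iron into heme. Of 9 carotenoid probe sets, 8 were higher in shoot, with CCD1, a carotenoid cleavage enzyme (6.18), and dxr of the precursor pathway (5.35) at the top.

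On the root side the largest difference was that of grp3, a glycine-rich protein gene. It was at the floor on all 3 shoot arrays and measured 11.70, 11.58 and 11.77 in root, a difference of -9.45 (SE 0.07, adjusted p = 4.9e-23). The auxin influx carrier gene aux1 was likewise at the floor in shoot and measured 10.73, 10.80 and 10.62 in root (-8.48, SE 0.35, adjusted p = 4.3e-13). TIP2-2, a water channel of the vacuole membrane, measured 2.41, 2.24 and 2.24 in shoot and 9.69, 9.56 and 9.55 in root (-7.30, SE 0.17, adjusted p = 1.9e-16), and its relative TIP2-3 differed by -6.76. For these root genes every shoot array lay at or next to the floor. The beta-expansin expB8, a wall-loosening protein (-6.17), the peroxidase PRX1 (-5.57), ROA (-5.46) and the glutathione S-transferase gst12 (-5.29) followed. The beta-glucosidase glu1, which frees benzoxazinoids from their sugar, was well above the floor in both tissues at 7.47, 7.41 and 7.29 in shoot and 12.69, 12.89 and 12.87 in root (-5.43, SE 0.24, adjusted p = 1.3e-12).

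Genes of chromatin and DNA replication made up much of the rest of this side. They included nfd101 (-8.72) and nfd106 (-5.94), both chromatin assembly factors, pcna2 of the DNA polymerase clamp (-6.65), the histone his2b5 (-6.42) and the centromeric histone cenH3 (-5.37). In the list of histones, cell cycle and replication, 22 of 31 probe sets were called higher in root and 0 in shoot, with a median of -1.74. In it the replication helicase subunits MCM6 (-4.51) and MCM7 (-4.36), the cyclin cyc3 (-4.33) and the recombinase rad51a (-4.14) had the largest differences after those named above, rad51a being close to rad51b (-4.07). Cytosolic ribosomal protein genes went the same way, with 22 of 28 called higher in root and a median of -1.93. Of these, rpp2a-3 measured 7.79, 7.81 and 7.87 in shoot and 12.13, 12.14 and 12.06 in root (-4.29, SE 0.06, adjusted p = 5.2e-19). The exceptions, rpl29 (5.25) and rpp2b (2.98), were called higher in shoot.

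**Figure D2:**
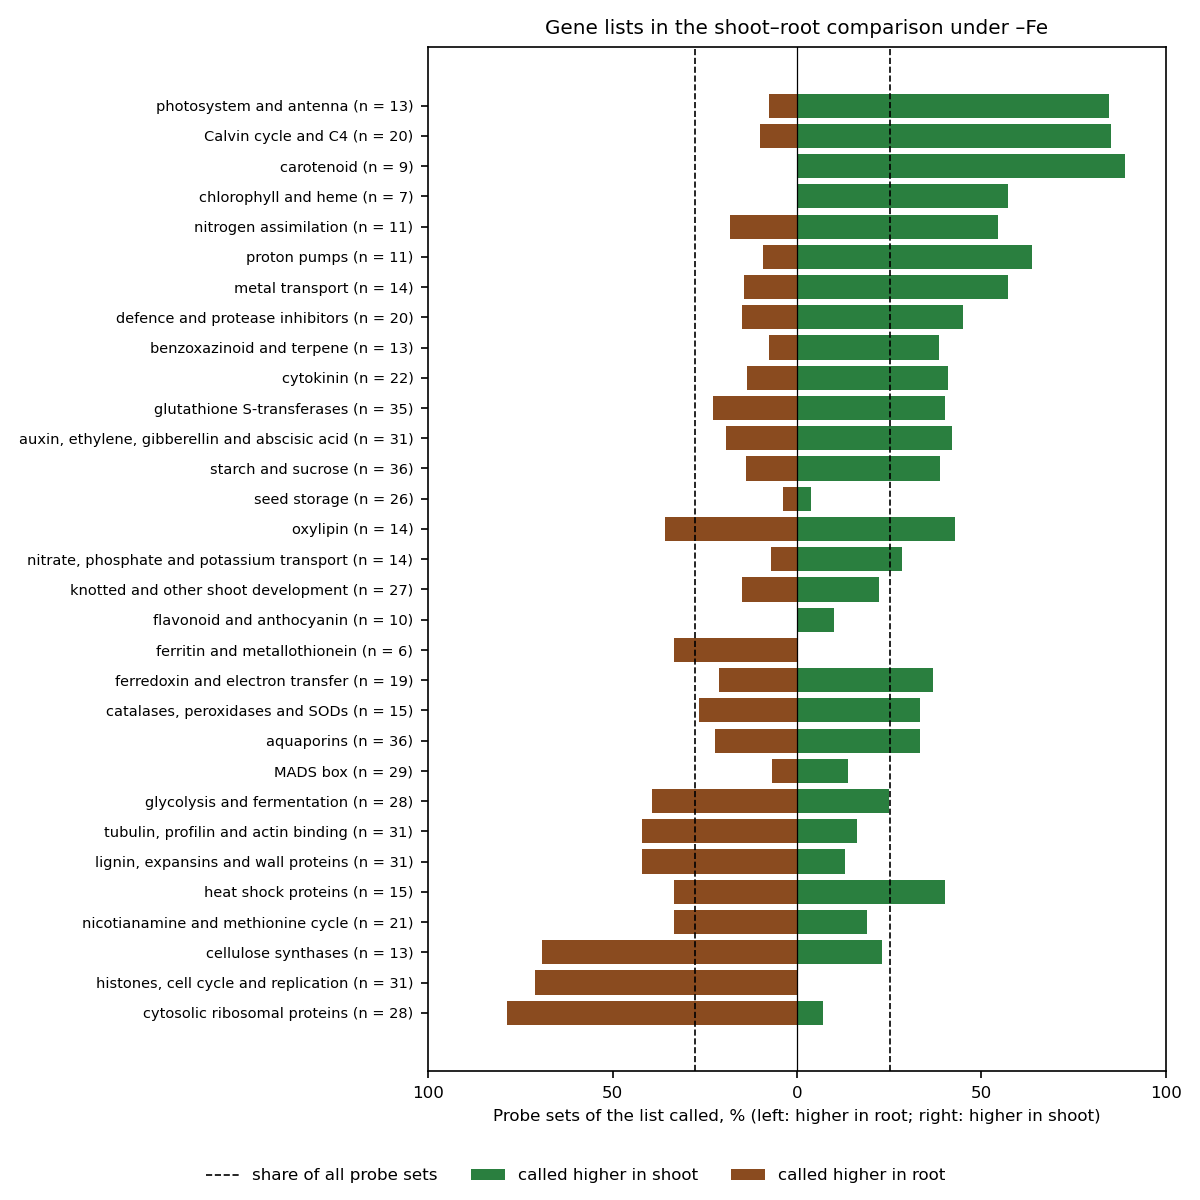
Share of the probe sets of each gene list (y axis, with n) called higher in shoot (to the right) or higher in root (to the left) under –Fe, in percent (x axis). Dashed lines mark the shares over all probe sets, 25.3% and 27.7%, and photosynthesis lists lie at the shoot end while histones and ribosomal proteins lie at the root end.

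Of 21 nicotianamine, mugineic acid and methionine cycle probe sets, 4 were called higher in shoot and 7 in root, median -0.23, not far from the shares over all probe sets (25.3% and 27.7%). The nicotianamine synthases differed most. The gene nas1 measured 2.36, 2.24 and 2.82 in shoot and 8.61, 8.46 and 8.21 in root, a difference of -5.96 (SE 0.39, adjusted p = 2.5e-10), and a second of its 4 probe sets differed by -3.75. Another was not called (-0.99, adjusted p = 0.162), and the last was at the floor in both tissues. Nicotianamine synthase 3 measured 12.70, 12.77 and 12.66 in shoot and 5.94, 6.14 and 6.80 in root, a difference of 6.42 (SE 0.14, adjusted p = 8.4e-17). The 2 synthases thus differed in opposite directions with no overlap of the arrays, while nas2 was at the floor throughout.

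Later and feeding steps of the pathway differed less. DMAS1, the deoxymugineic acid synthase, measured 7.01, 6.24 and 6.48 in shoot and 8.31, 8.08 and 8.07 in root (-1.58, SE 0.49, adjusted p = 0.0114). IDI2, a methionine salvage gene first described in iron-deficient barley, was also higher in root (-1.04, adjusted p = 0.00481). In the methionine cycle itself, S-adenosylmethionine synthetase 1 (-1.26), Adenosylhomocysteinase (-2.04) and the homocysteine methyltransferase HMT-2 (-3.01) were higher in root. HMT-1 (1.30), sam2 (1.07) and S-adenosylmethionine decarboxylase (1.24), which leads to polyamines, were higher in shoot. The call of sam2 was lost without shoot replicate 3 (0.94) or root replicate 3 (0.96), and that of the decarboxylase without shoot replicate 1 (1.08). HMT-3 (-0.23), MMT1 (-0.57), cgs1 (-0.29) and fdh1 (0.25) were not called.

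Of 14 metal transport probe sets, 8 were called higher in shoot and 2 in root, median 1.09. The gene ys1, for the transporter of iron bound to mugineic acids, measured 11.29, 11.01 and 11.10 in shoot and 4.86, 4.64 and 4.93 in root, a difference of 6.32 (SE 0.33, adjusted p = 8.3e-12). An oligopeptide transmembrane transporter measured 10.73, 10.50 and 10.98 in shoot and 3.34, 3.34 and 3.35 in root (7.39, SE 0.23, adjusted p = 6.7e-15). Both were high on every shoot array and low on every root array. NRAMP transporter1, of a family that carries divalent metals, measured 7.91, 7.90 and 7.69 in shoot and 6.87, 6.96 and 6.62 in root (1.01, SE 0.21, adjusted p = 0.00041). The cation exchanger cax1 (2.55), a metal ion transmembrane transporter (2.94) and a cation transmembrane transporter (2.20) were also higher in shoot. Calls for ZRT-IRT-like protein 5 (1.17, adjusted p = 0.0332) and a second cation transmembrane transporter (1.41, adjusted p = 0.0414) were less firm. The first was lost without shoot replicate 2 (0.83), root replicate 1 (0.96) or root replicate 2 (1.00) and in a fit of the 6 arrays alone, and the second without any 1 of the 6 arrays (1.26 to 1.49). A metal ion transporter (-3.62) and a heavy metal transport protein (-1.09) were higher in root. Zinc transporter 4 (-0.23), Ferric-chelate reductase (-0.36), ABC transporter C family member 14 (0.69) and ZCAX2 (-0.07) were not called.

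Storage genes differed little between tissues, with 0 of 6 ferritin and metallothionein probe sets called higher in shoot and 2 in root. The ferritin gene fer1 measured 7.69, 8.44 and 7.67 in shoot and 7.40, 7.50 and 7.24 in root, a difference of 0.56 that was not called (SE 0.25, adjusted p = 0.0728). The arrays did not overlap, and median centring of the arrays brought the adjusted p to 0.0384. The ferritin gene fer2 measured 4.33, 5.15 and 4.31 in shoot and 5.54, 5.33 and 5.58 in root (-0.88, SE 0.20, adjusted p = 0.00086). Shoot replicate 2 was the highest shoot array for both ferritins. Metallothionein-like protein type 2, of a family of small metal-binding proteins, measured 6.99, 7.28 and 7.17 in shoot and 7.60, 7.63 and 7.62 in root (-0.47, SE 0.16, adjusted p = 0.0208), and the call was lost without shoot replicate 1 (-0.39, adjusted p = 0.0904) or root replicate 2 (-0.46, adjusted p = 0.0502).

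**Figure D3:**
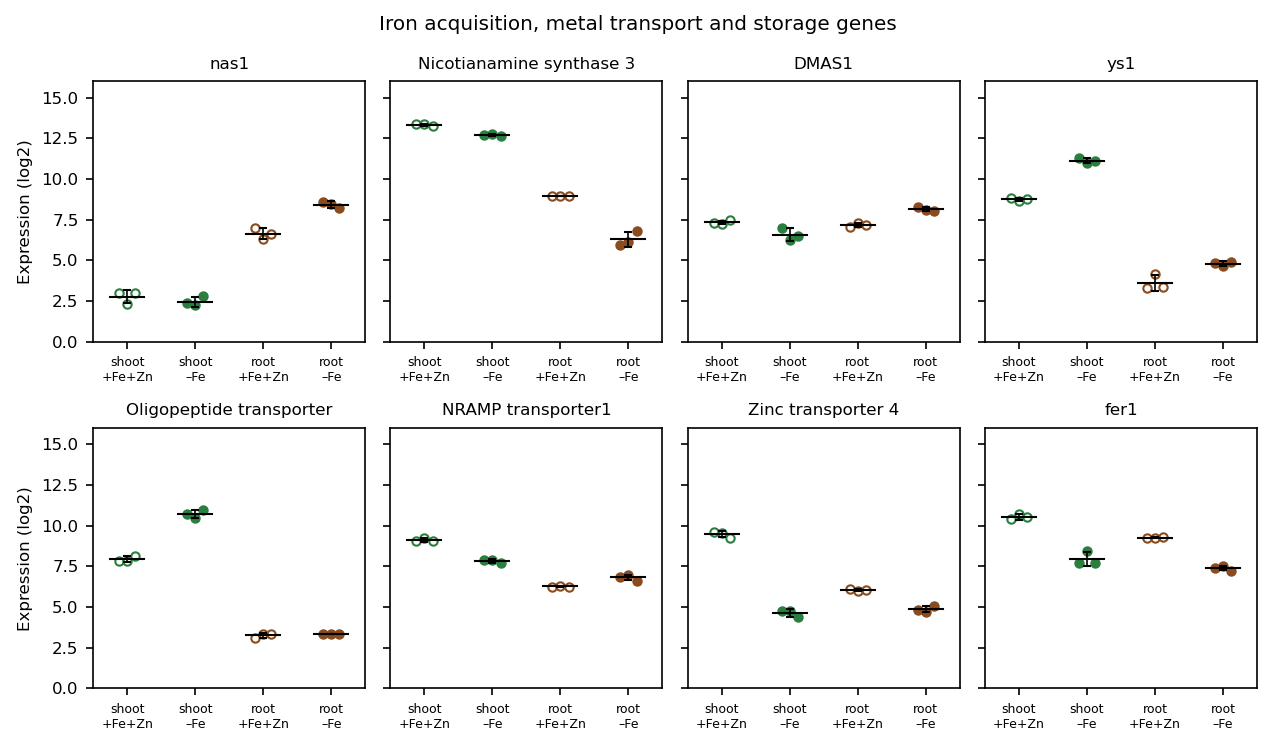
Deposited log2 values (y axis) of 8 iron acquisition, metal transport and storage genes in shoot and root under +Fe+Zn (open points) and –Fe (filled points), with the mean and SD of 3 arrays. Under –Fe, nas1 is higher in root by 5.96, Nicotianamine synthase 3, ys1 and the oligopeptide transporter are higher in shoot, and Zinc transporter 4 is at a similar level in both.

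Members of 1 family lay on opposite sides in several lists. Among 19 ferredoxin and electron transfer probe sets, 7 were called higher in shoot and 4 in root, beside 25.3% and 27.7% of all probe sets. The ferredoxin fdx2, an iron-sulphur electron carrier, measured 10.66, 11.10 and 10.76 in shoot and was at or next to the floor in root (8.60, SE 0.10, adjusted p = 8.5e-21). Its relative FDX6 measured 6.31, 6.92 and 6.13 in shoot and 8.95, 8.98 and 8.88 in root (-2.48, SE 0.21, adjusted p = 6.9e-09). Another, fdx3, measured 13.35, 13.36 and 13.46 in shoot and 13.45, 13.46 and 13.40 in root, groups that overlapped (-0.04, SE 0.10, adjusted p = 0.956). Its second probe set measured 9.27, 9.17 and 8.98 in shoot and 8.66, 8.71 and 8.46 in root, with no overlap and no call (0.53, SE 0.36, adjusted p = 0.274). The SD of these arrays was 0.15 in shoot and 0.13 in root, while the SE also takes in the spread of the other groups. The reductases that pair with ferredoxin split too, with L-FNRI (6.22) and L-FNRII (9.70) higher in shoot and fnr1 (-2.41) higher in root. FTRC of the ferredoxin-thioredoxin reductase (3.94) and both probe sets of pgr5 (6.82 and 7.37), a gene of cyclic electron flow, were higher in shoot. Of the enzymes that draw on ferredoxin, the nitrite reductase NIR (0.81) was higher in shoot and the sulphite reductase sir (-0.93) in root.

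Nitrogen assimilation genes were split in the same manner. Of 11 probe sets, 6 were higher in shoot and 2 in root, median 2.04. The glutamine synthetase gln1 measured 10.80, 10.33 and 10.18 in shoot and 6.30, 6.15 and 6.13 in root (4.25, SE 0.23, adjusted p = 1.9e-11). GLN6 (3.96) and gln5 (2.04) shared its direction. The arrays of gln2 were reversed, at 7.59, 7.70 and 8.04 in shoot and 9.58, 9.68 and 9.57 in root (-1.84, SE 0.21, adjusted p = 4.4e-07).

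Of 36 aquaporin probe sets, 12 were called higher in shoot and 8 in root. Those counts were not far from the shares over all probe sets (25.3% and 27.7%). The silicon channel homologue NIP2-2 (7.90), PIP1-1 (2.81) and TIP1-1 (1.04) were higher in shoot, and pip2-5 (-4.96) and PIP2-6 (-3.75) in root beside the TIP2 genes. Glycolytic genes gave 7 in shoot and 11 in root of 28. The cytosolic glyceraldehyde-3-phosphate dehydrogenases gpc3 (-3.65) and gpc4 (-5.13) were higher in root and gpc2 (1.87) in shoot, and 2 probe sets of GPC1 were higher in shoot by 3.75 and 1.08. Of the fermentation genes, pdc1 (-2.44) and pdc3 (-3.21) of pyruvate decarboxylase were higher in root, and the alcohol dehydrogenase adh2 (3.22) was higher in shoot while adh1 (-0.99) was higher in root.

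**Figure D4:**
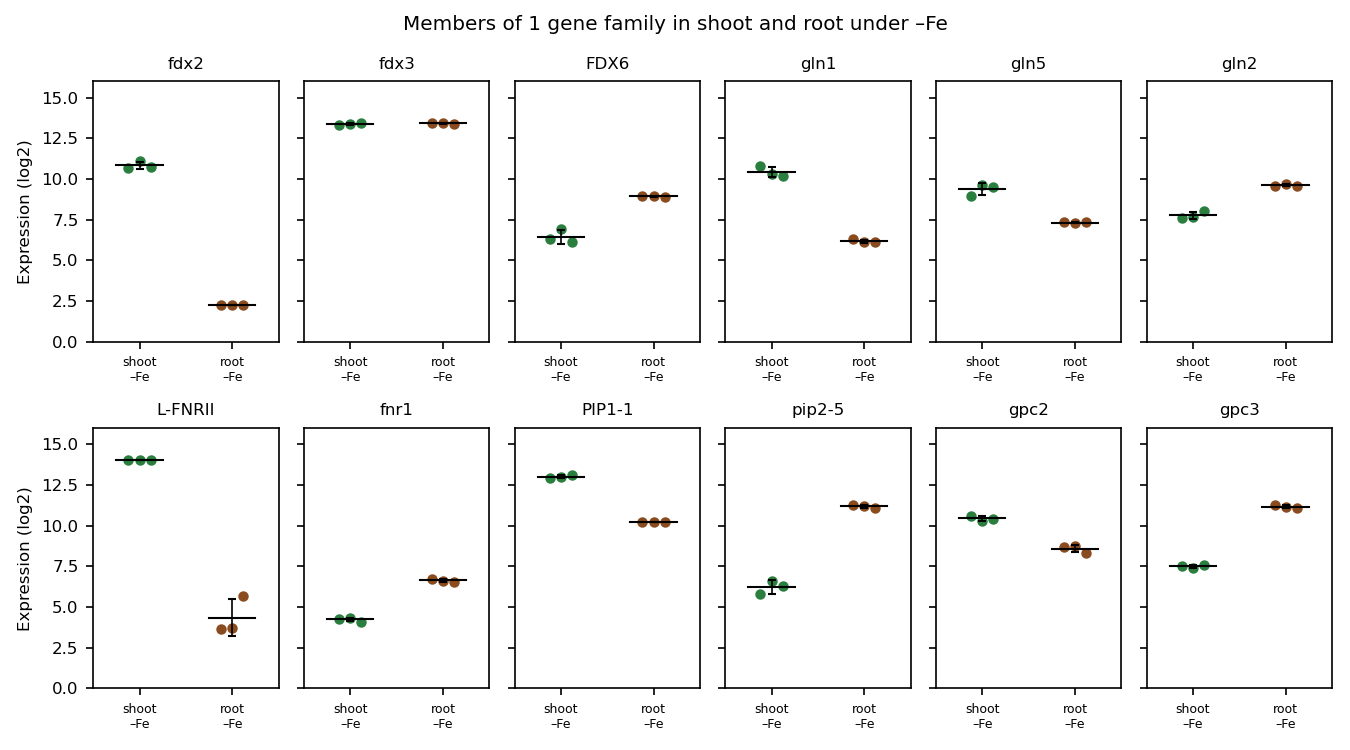
Deposited log2 values (y axis) of 12 genes from 5 families in shoot and root under –Fe, with 3 arrays as points and their mean and SD. Within the ferredoxins, glutamine synthetases, ferredoxin-NADP reductases, aquaporins and glyceraldehyde-3-phosphate dehydrogenases, 1 member is higher in shoot and another in root, and the brighter probe set of fdx3, plotted here, overlaps between tissues.

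Of 36 starch and sucrose probe sets, 14 were higher in shoot and 5 in root, with a median difference of 0. Sucrose-phosphate synthase, which makes sucrose in source leaves, was higher in shoot as sps1 (6.84) and so was the starch synthase ss1 (5.99). Sucrose synthase, which breaks sucrose down, was higher in root as sus1 (-3.31) and SH-1 (-1.34). Cell wall and cytoskeleton genes lay more on the root side. Of 13 cellulose synthase probe sets, 9 were higher in root, up to cesa10 (-3.95), and 3 in shoot, namely CesA-3 (0.53), CesA-5 (1.49) and CesA-6 (0.69). Of 31 tubulin, profilin and actin-binding probe sets, 13 were higher in root and 5 in shoot, with TUBG2 (-5.10), tub6 (-4.85) and TUBB5 (-4.58) at the root end. Lignin, expansin and wall protein genes gave 13 higher in root and 4 in shoot of 31.

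Of 15 probe sets for catalases, ascorbate peroxidases, superoxide dismutases and peroxidases, 5 were higher in shoot and 4 in root. Those counts were not far from the shares over all probe sets (25.3% and 27.7%). The catalase cat2 measured 9.86, 10.03 and 10.25 in shoot and 2.59, 2.61 and 2.98 in root (7.32, SE 0.12, adjusted p = 2.4e-18). The ascorbate peroxidase apx2 (3.52) and the superoxide dismutase sod2 (2.69) shared its direction. Glutathione S-transferases gave 14 higher in shoot and 8 in root of 35, from GST39 (4.63) to gst12. Proton pump genes gave 7 and 1 of 11, with the vacuolar pyrophosphatase vpp1 at 5.96. Among 22 cytokinin probe sets, 9 were higher in shoot, led by the cytokinin oxidases cko2 (5.78) and cko3 (4.99), and 3 in root, led by the response regulator RR6 (-2.31). Of 31 auxin, ethylene, gibberellin and abscisic acid probe sets, 13 were higher in shoot and 6 in root, among them aux1 and a gibberellin receptor (-4.95) in root.

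Of 27 knotted and other shoot development probe sets, 9 were at the floor on all 6 arrays and 17 were not called. Those at the floor included kn1, lg4b, lg1, ns1, ns2 and tb1. The chloroplast regulator glk1 measured 6.52, 6.88 and 6.80 in shoot and 2.54 on each root array (4.20, SE 0.18, adjusted p = 6e-13). The homeobox genes ocl5 (3.50), knox7 (1.49), ocl3 (1.48), hox3 (1.05) and Hox2b (0.55) were also higher in shoot. In root, ocl1 (-1.28), hox1a (-1.04), Hox1b (-0.38) and ocl2 (-0.30) were higher, and leaving out any of 5 arrays, root replicate 1 being the exception, ended the call of Hox1b. Of 26 seed storage probe sets, 19 were at the floor on all 6 arrays, and 1 was called in each direction.

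The same tissue contrast under full supply called 4520 probe sets (25.7%) for shoot and 4551 (25.8%) for root. Of those, 3338 were called higher in shoot under both supplies and 3672 higher in root under both. The 2 contrasts share no array. The difference between them was then tested directly, and it was called towards shoot under –Fe for 2481 probe sets (14.1%) and towards root for 2894 (16.4%). Among the probe sets called higher in shoot under –Fe, 2277 showed no called difference between supplies. The change was called towards shoot for 1496, which include 580 not called under control, and towards root for 680. For those higher in root these counts were 2692 not called, 1587 towards root, which include 589 not called under control, and 595 towards shoot. Both sets were picked by the –Fe contrast, which is part of the change, and this favours the larger count on each side. A direction called under both supplies was turned for 224 probe sets that were higher in shoot under –Fe and in root under control, and for 184 the other way round.

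Signal at the middle of control transcripts moved with this comparison. The middle minus 3′ signal of control probe sets averaged -6.27 (SD 0.33) in shoot –Fe, -6.50 (SD 0.23) in root –Fe, -9.26 (SD 0.08) in shoot control and -7.09 (SD 0.14) in root control. Its part in the differences between supplies was not tested beyond a covariate fit, chosen after the data were seen, which gave 3159 probe sets towards shoot and 2717 towards root.

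The largest changes towards shoot included asn1, the asparagine synthetase gene. It measured 10.57, 10.50 and 10.83 in shoot and 6.19, 6.30 and 6.06 in root under –Fe (4.45, SE 0.31), with control means of 2.50 and 6.98. Its tissue difference thus turned, by 8.92 (adjusted p = 6.5e-11). The small heat shock protein gene hsp18c measured 11.40, 11.33 and 11.42 in shoot and 2.96, 2.96 and 2.92 in root, with control means of 3.12 and 3.05, so that its difference of 8.44 was present under –Fe and not called under control (change 8.37, adjusted p = 6.1e-12). Its relatives hsp18f (7.82) and hsp18a (8.77) were higher in shoot under both supplies and moved by 5.15 and 4.93. The large shoot side was not particular to –Fe. With zinc withheld instead, shoot and root averaged 9.94 and 3.04 for hsp18c, 9.61 and 4.45 for hsp18f and 11.14 and 3.75 for hsp18a. The –Fe differences of hsp18c, hsp18f and hsp18a exceeded those under –Zn by 1.54, 2.66 and 1.39, all called. LOC541918 (7.13, change 7.97) and the lipoxygenase lox3 (2.87, change 5.28) turned from root to shoot. GT1 differed by 7.39 (change 6.69). The peroxidase PER66 was near the floor in both –Fe tissues and averaged 7.87 in control root, so its change of 5.43 came with no called –Fe difference (-0.07).

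As a list, 10 of 15 heat shock probe sets moved towards shoot and 0 towards root, although under –Fe itself 6 were higher in shoot and 5 in root (median -0.21). The chaperonin genes HSP60-1 and CPN60II (-3.70) stayed higher in root. Aquaporins gave 15 of 36 towards shoot and 1 towards root, cytosolic ribosomal proteins 10 of 28 and 0, and nitrogen assimilation 7 of 11 and 1. The histone and replication list gave 0 towards shoot and 9 of 31 towards root, and starch and sucrose 3 and 11 of 36. The shares over all probe sets were 14.1% towards shoot and 16.4% towards root.

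In the other direction, PEAMT, a phosphoethanolamine methyltransferase of phosphocholine synthesis, measured 5.40, 7.77 and 5.30 in shoot and 8.71, 8.91 and 8.76 in root under –Fe (-2.64, SE 0.43, adjusted p = 3.6e-05), with control means of 12.69 and 9.64. It moved by -5.68 (adjusted p = 1.4e-06), and shoot replicate 2 stood apart. The cyclotide gene, for a plant defence peptide, was at or next to the floor in shoot and measured 6.88, 7.10 and 6.97 in root (-4.74), against control means of 9.05 and 9.69 (change -4.10). The ent-kaurene synthase gene eks1 kept its shoot side with 5.18, 7.13 and 5.24 against 2.38, 2.25 and 2.31 (3.54), a difference smaller than under control by 3.84. Again shoot replicate 2 was the high array.

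Among the genes with the largest changes, 5 had a tissue difference that was called under control and not under –Fe. The first benzoxazinoid gene bx1 measured 2.47, 2.70 and 2.45 in shoot and 2.24, 2.26 and 2.24 in root (0.29, adjusted p = 0.151), with control means of 6.35 and 2.41 (change -3.66). Zinc transporter 4 measured 4.77, 4.73 and 4.37 in shoot and 4.80, 4.70 and 5.07 in root (-0.23, adjusted p = 0.62), with control means of 9.47 and 6.07 (change -3.64). IRL (0.24, change -3.59) and the profilin prf1 (0.20, change -3.58) did likewise, as did PER66 above. Under –Zn the means in shoot and root were 2.86 and 2.24 for bx1, 6.23 and 6.78 for Zinc transporter 4 and 5.12 and 4.42 for IRL, and for these genes the tissue difference under –Fe was not called different from that under –Zn. For prf1 (-2.36) and PER66 (2.98) it was. Metallothionein-like protein type 2 was turned, its control means being 10.54 and 7.69 (change -3.32).

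Of the metal transport list, 2 of 14 moved towards shoot and 5 towards root, and of the nicotianamine list 2 of 21 and 5. Over all probe sets these shares were 14.1% and 16.4%, and except for metal transport towards root the counts lay near them. The difference of nas1 moved by -2.07 further to root (adjusted p = 0.00786) and that of Nicotianamine synthase 3 by 2.04 further to shoot (adjusted p = 5e-07). The change of ys1, 1.18, was not called (adjusted p = 0.0638), nor was that of DMAS1, -1.75 (adjusted p = 0.0707). The oligopeptide transmembrane transporter moved by 2.73 towards shoot. NRAMP transporter1 (-1.85), Ferric-chelate reductase (-1.86) and ABC transporter C family member 14 (-3.26) moved towards root. With zinc withheld, shoot and root averaged 3.92 and 4.95 for the reductase and 5.14 and 5.09 for the ABC transporter. For neither was the –Fe tissue difference called different from that under –Zn. For NRAMP transporter1 it was, by 1.63 towards shoot (adjusted p = 2.5e-04). All 3 called changes among 6 ferritin and metallothionein probe sets were towards root, and fer2 was turned (-2.07) from control means of 7.27 and 6.09.

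**Figure D5:**
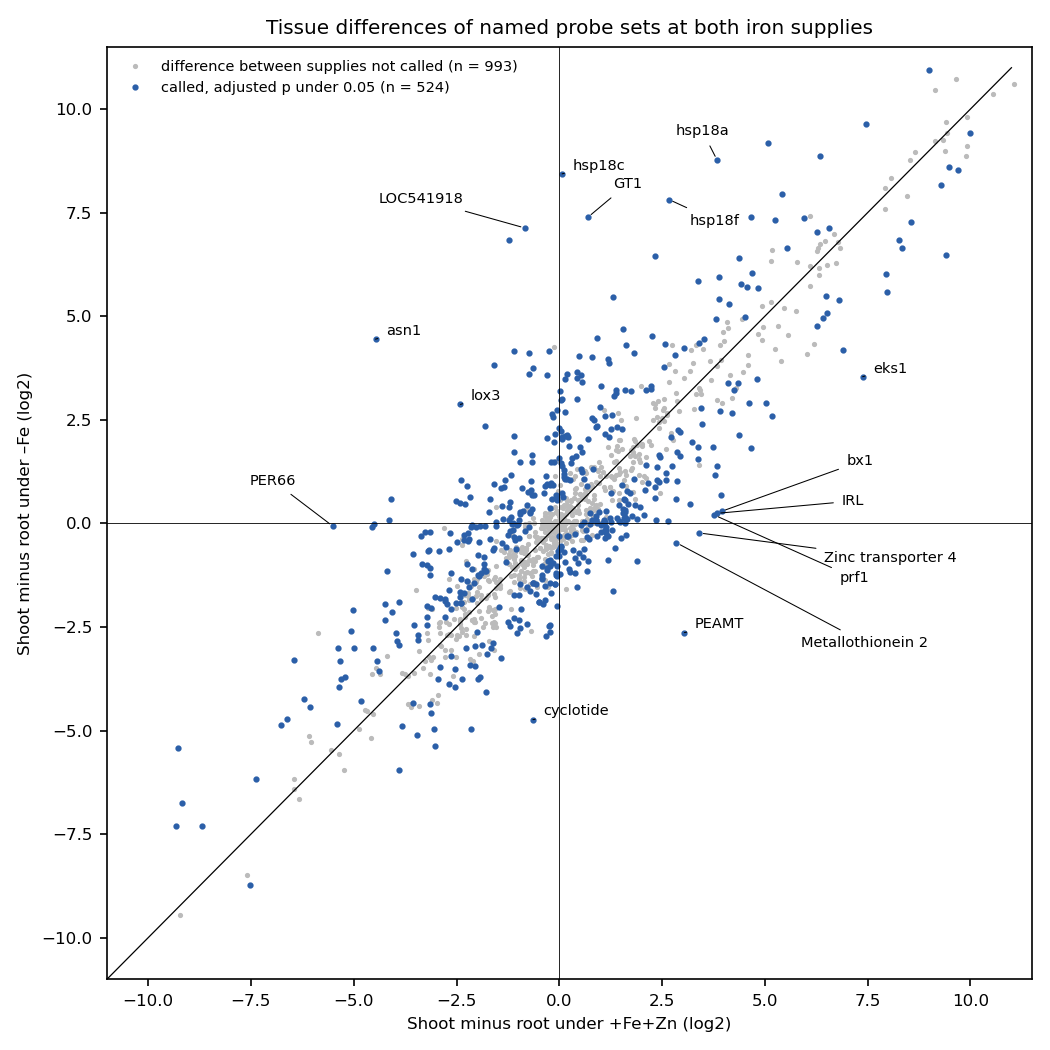
Tissue difference (shoot minus root, log2) under –Fe (y axis) against that under +Fe+Zn (x axis) for 1517 named probe sets, with blue points for a called difference between supplies (295 towards shoot and 229 towards root). Over all 17621 probe sets the balance was the other way, with 14.1% called towards shoot and 16.4% towards root. The diagonal marks equal differences, and labels mark the 8 largest changes in each direction, from asn1 at 8.92 to PEAMT at -5.68.

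Against –Zn, the –Fe tissue difference was further towards shoot for 3635 probe sets (20.6%) and towards root for 3598 (20.4%). The middle minus 3′ signal was -9.27 in shoot –Zn and -6.21 in root –Zn, and the covariate fit gave 3886 towards shoot and 2753 towards root.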

How the data were processed

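Total RNA of maize shoots and roots was hybridised to 24 Affymetrix Maize Genome Arrays, 3 for each of 8 groups. The authors' methods describe GCRMA, and the table deposited holds a log2 value for every probe set on every array. The processing notes of the submitters mention limma, affy and RMA with no version, which leaves unsettled how background was corrected. No raw intensities were used here. Groups and replicates came from the sample labels.

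In R 4.3.3 with limma 3.58.1, lmFit and eBayes were run on all 24 arrays with 8 group means in the model, values as deposited and no replicate block. The contrasts were shoot minus root under –Fe, the same under +Fe+Zn and –Zn, and the differences between these contrasts. P-values were adjusted over 17734 probe sets, and 17621 were counted, since 113 are controls. An exact permutation test of 3 against 3 cannot give a two-sided p under 0.10, so none is given. The fit was tested on simulated data, but no outcome is given here to judge it by. Precision depends on 3 arrays a group.

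The array annotation gave 1 gene to 1452 probe sets, and 65 more were named from the paper's table, 1517 in all. Named genes are the 15 largest differences in each direction, with 1 probe set a gene and no overlap of arrays, the 8 largest changes between supplies in each direction, every member of the nicotianamine, metal transport, ferritin, ferredoxin and knotted lists, and family members called in opposite directions. The members and the 32 gene lists were chosen with earlier results of these data known. Lists rest on words in gene symbols and titles and were not tested as sets. No sequences are shown.

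Alternatives were a fit of only the compared arrays, a replicate block, each replicate left out, median centring, quantile normalization, leaving out probe sets whose group means were all under 3.00 (the 40th percentile of all values, leaving 12500), an intensity trend with a robust prior, a fit without the –Fe–Zn arrays, a fit without control probe sets, a 2-fold minimum and 1 probe set per gene. A covariate for the middle minus 3′ signal of control probe sets was added after the data were seen. Its slope rests on spread within groups, and shoot –Fe lies far from its control in it.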

Additional observations from a re-analysis of the deposited data

Results flagged for a closer look

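Each gene below was singled out because its shoot minus root difference under –Fe differed from that under +Fe+Zn in limma's test of the difference itself, at an adjusted p under 0.05 with 3 arrays a group. A positive value is a shift towards shoot under –Fe, on the log2 scale.

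Among the genes highest in shoot, me3 shifted by 4.102, LOC100125656 by 2.19, pep1 by 1.95 and LOC541622 by -0.56. Among those highest in root, glu1 shifted by 3.84, TIP2-3 by 2.41, TIP2-2 by 2.02 and expB8 by 1.21, all smaller root differences, whereas cenH3 shifted by -2.36, nas1 by -2.07 with -1.77 in a second probe set, and nfd101 by -1.21. For TIP2-3, TIP2-2, expB8 and LOC541622 the –Fe tissue difference was not called different from that under –Zn. For the other genes of this paragraph it was.

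The largest shifts towards shoot were those of asn1 (8.92), hsp18c (8.37), LOC541918 (7.97), GT1 (6.69), PER66 (5.43), lox3 (5.28), hsp18f (5.15) and hsp18a (4.93). Towards root they were those of PEAMT (-5.68), the cyclotide gene (-4.10), eks1 (-3.84), bx1 (-3.66), Zinc transporter 4 (-3.64), IRL (-3.59), prf1 (-3.58) and Metallothionein-like protein type 2 (-3.32).

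In chelator synthesis and the methionine cycle, Nicotianamine synthase 3 (2.04) and HMT-1 (1.19) shifted towards shoot, and cgs1 (-1.48), HMT-2 (-1.33) and fdh1 (-0.49) towards root. In metal transport and storage, the oligopeptide transmembrane transporter (2.73) and the heavy metal transport protein (0.75) shifted towards shoot. ABC transporter C family member 14 (-3.26), fer2 (-2.07), Ferric-chelate reductase (-1.86), NRAMP transporter1 (-1.85), mtl2 (-1.41) and a cation transmembrane transporter (-0.74) shifted towards root. The mtl2 probe set was next to the floor in –Fe shoot and root (2.33 and 2.28) and averaged 3.75 in control shoot.

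Of the ferredoxin genes, 1 probe set each of fnr1 (1.93), fdx3 (1.74), NIR (1.49) and pgr5 (1.42) shifted towards shoot. FDX6 (-1.29), sir (-1.07) and fdx2 (-0.88) shifted towards root. The shifted fnr1 probe set was next to the floor in –Fe shoot and root (2.26 and 2.34) and averaged 4.28 in control root. The change of the brighter fnr1 probe set was not called (-0.59). Of the shoot development genes, knox7 (1.62) and hox3 (0.79) shifted towards shoot. Towards root shifted glk1 (-2.71), rs2 (-1.90), ocl5 (-1.32), rld2 (-1.24), ocl1 (-1.23) and ocl2 (-0.29). For glk1, rld2 and ocl1 the –Fe tissue difference was not called different from that under –Zn, and for knox7, hox3, rs2 and ocl2 it was. The rs2 probe set was near the floor in –Fe shoot and root (2.32 and 2.59) and averaged 4.12 in control shoot. The middle minus 3′ signal of control probe sets differed between the shoot groups (-6.27 under –Fe, -9.26 under +Fe+Zn), and its part in these shifts was not tested gene by gene beyond the covariate fit.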

How the results depend on the processing

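Under every alternative run, the counts of called probe sets stayed within 1.5 times of those reported. Leaving out 1 array in turn gave 4234 to 4312 higher in shoot and 4631 to 4696 higher in root under –Fe, 3172 to 3232 and 3437 to 3486 at the methods' threshold, 2255 to 2362 and 2534 to 2626 for the change against +Fe+Zn, and 3344 to 3540 and 3244 to 3514 against –Zn. Same-numbered shoot and root arrays correlated in their deviations at -0.10 to 0.033 under –Fe and +Fe+Zn and at -0.027 to 0.108 under –Zn, so the numbers were not taken to pair them. With a replicate block the counts were 4427 and 4857, 3208 and 3489, 2428 and 2802, and 3571 and 3522. The widest departures were for the change against +Fe+Zn, 3379 and 4270 with only the compared arrays. A fit without the –Fe–Zn arrays, which enter only the shared spread, gave 3263 and 4060 for it and 4356 and 4505 against –Zn. These counts too were above those reported.

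The median of the heat shock list turned from -0.21 to 1.01 with 1 probe set per gene, where the small heat shock genes weigh more by the construction of that count. For single named genes, all 336 values of the change between supplies that were checked kept direction and call. They do not cover every shift named above, and the stability of the rest is not shown here. Genes named for the largest changes were picked by that size in these same data, which favours keeping direction and call. Of the values for the –Fe difference 1141 kept both, while 22 lost the call and 21 gained it. Sign changes of differences smaller than their SE were not followed. Values at the floor limit what can be seen of weak transcripts.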
